A study of Mus musculus with 6 samples.

Results

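Aminoacyl-tRNA synthetases, the enzymes that load each amino acid onto its transfer RNA, were examined in neonatal mouse liver with and without an activated human *SRY* transgene (hSRY-ON and hSRY-OFF pups). The cytosolic enzymes that differed were higher in hSRY-ON livers and the mitochondrial ones that differed were mostly lower. Among 27 tested cytosolic probes 7 were higher (25.9%, against 15.8% of all tested probes) and 0 lower. Among 12 tested mitochondrial probes 3 were lower (25%, against 17.3% of all tested probes) and 1 was higher (8.33%). In either direction the shares were 25.9% and 33.3%, against 33.1% of all tested probes. With so few probes these shares are coarse. *Gars*, the glycine enzyme, rose 2.40-fold (log2 difference 1.26, SE 0.14, n = 3 livers per group), and *Sars*, the cytosolic serine enzyme, rose 2.12-fold (1.08, SE 0.18). *Iars*, *Lars* and *Dars*, which load isoleucine, leucine and aspartate, rose by smaller amounts, and 11 cytosolic members had no probe past the threshold. Of the mitochondrial enzymes, *Pars2*, *Sars2* and *Lars2* fell by 1.96-, 1.87- and 1.67-fold. These sizes were smaller without background correction (log2 differences of -0.54, -0.42 and -0.42), a second *Pars2* probe was not past the threshold, and the *Sars2* call depended on single arrays.

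All probes whose gene symbol in the deposited table was 1 of 34 synthetase symbols were taken, 20 for cytosolic enzymes and 14 for mitochondrial enzymes, whose names end in 2. They amounted to 54 of 25697 probes and 32 of the 34 members (36 cytosolic probes of 20 members and 18 mitochondrial probes of 12 members). *Cars2* and *Tars2* were not analysed here. Both groups were male mice at postnatal day 6 (P6), with 3 liver RNA samples each, on the background that the labels call FVB and the study's methods FVB/N. Mice of both groups carried a single copy of the *Signalox-hSRY* transgene at the *H11* locus, a single integration site. In hSRY-OFF mice the transgene had not been recombined. In hSRY-ON mice, Cre protein from the oocyte of a *Ddx4-Cre* mother had removed the DsRed stop in the single-cell embryo, which placed human *SRY* and EGFP under the *CAG* promoter in all tissues. The hSRY-ON pups chosen for the arrays did not themselves carry *Ddx4-Cre*, although their mothers did. The study speaks of biological triplicates, and the labels give no litter, body weight or feeding state for any sample. It reports that hSRY-ON pups suckled little, lacked milk in the stomach and grew more slowly. Given the cross it describes, hSRY-OFF carriers of the transgene would have had mothers without *Ddx4-Cre*. Mother, litter, feeding and growth would then differ along with the group, and their part was not tested.

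Each synthetase joins 1 amino acid to the matching transfer RNAs, using ATP, and the charged transfer RNA then carries the amino acid to the ribosome. Cytosolic and mitochondrial protein synthesis mostly use separate enzymes, all encoded in the nucleus. *Gars* and *Kars* are exceptions, since each gives rise to both a cytosolic and a mitochondrial enzyme, and they are counted here with the cytosolic members by name. Several cytosolic enzymes sit together in the multi-synthetase complex (encoded by *Eprs*, *Iars*, *Lars*, *Mars*, *Qars*, *Rars*, *Kars* and *Dars*) around scaffold proteins. Many cytosolic synthetase genes are known targets of ATF4, a transcription factor translated more when amino acids are short or the endoplasmic reticulum is stressed. ATF4 pairs with C/EBP proteins on a composite element whose core letters are TGATGNAA.

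The start regions of the synthetase genes are shown first, because these letters were found in some cytosolic members. A window from 250 bases before to 50 bases after each annotated start was available from RefSeq (assembly GRCm38.p6) for 26 members. The letters TGATGNAA, searched on both strands, occurred in the windows of 5 of 13 cytosolic members and 0 of 13 mitochondrial members. Of all 32851 windows, 3.97% held them, and of all 27025 genes with a window, 4.51% did. The 30 bases around a match in each of these members are given 5′ to 3′ on the strand of the gene, with the matched letters in capitals, which in all but the *Yars* site read as the reverse complement of the motif.
Gars, chr6:55037960-55037989, plus strand: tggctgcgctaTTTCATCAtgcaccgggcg
Iars, chr13:49682126-49682155, plus strand: cactgtcagtaTTGCATCAcctccagacgc
Aars, chr8:111033840-111033869, plus strand: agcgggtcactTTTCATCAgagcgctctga
Tars, chr15:11399655-11399684, minus strand: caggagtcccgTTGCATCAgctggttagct
Yars, chr4:129189895-129189924, plus strand: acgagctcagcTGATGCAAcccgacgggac

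The matched letters of *Gars* ended 23 bases before the start and those of *Tars* 8 bases before it. In *Iars*, *Yars* and *Aars* the matches printed lay just after the start. *Aars* had another match, not printed, at positions -112 to -105 relative to the start. Matches and measured differences coincided only in part. *Gars* and *Iars* were 2 of the 4 cytosolic members with a window that rose. *Sars* rose and its window held no match, the *Aars* window held the letters and its probe was not past the threshold, and *Tars* and *Yars* were not detected on these arrays. A match of letters is a description of the sequence, and no binding was measured in these livers. *Cars*, *Hars*, *Lars*, *Nars*, *Rars*, *Vars*, *Wars* and *Pars2* had no entry in the window table.

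For comparison, the 150 bases directly before the annotated start are printed for the enzymes with the largest rises and for mitochondrial enzymes that fell, with the matched letters again in capitals.
Gars, chr6:55037851-55038000, plus strand: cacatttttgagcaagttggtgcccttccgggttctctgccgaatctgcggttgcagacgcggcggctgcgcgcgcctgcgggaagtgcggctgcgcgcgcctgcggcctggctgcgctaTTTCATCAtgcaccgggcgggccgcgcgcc
Sars, chr3:108445260-108445409, minus strand: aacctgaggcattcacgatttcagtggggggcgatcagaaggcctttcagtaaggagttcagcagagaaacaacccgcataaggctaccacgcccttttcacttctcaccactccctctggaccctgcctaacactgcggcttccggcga
Lars2, chr9:123366777-123366926, plus strand: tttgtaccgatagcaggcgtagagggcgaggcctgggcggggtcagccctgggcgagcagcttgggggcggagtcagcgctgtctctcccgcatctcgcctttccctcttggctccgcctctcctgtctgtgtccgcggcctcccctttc
Sars2, chr7:28741818-28741967, plus strand: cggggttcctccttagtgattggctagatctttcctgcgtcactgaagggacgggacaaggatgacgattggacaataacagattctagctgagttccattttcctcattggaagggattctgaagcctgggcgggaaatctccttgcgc

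These stretches differed in base composition. The share of G and C was 69.3% before *Gars*, 67.3% before *Lars2*, 55.3% before *Sars* and 50.7% before *Sars2*. These stretches are too few to compare enzymes that rose with those that fell, and other members were not included.

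The arrays reported intensity for each probe with a detection p-value. Median deposited intensities were 147 to 165 and 40.2% to 41.9% of probes were detected per array (detection p under 0.01). After background correction, quantile normalization and log2 transformation, 39 synthetase probes of 25 members were detected on at least 3 of the 6 arrays and tested. The 15 probes left out included every probe of *Cars*, *Hars*, *Tars*, *Yars*, *Aars2*, *Nars2* and *Yars2*, which were not above background here. Differences are hSRY-ON minus hSRY-OFF on the log2 scale from limma's moderated test, with p-values adjusted by the Benjamini-Hochberg method over all 10734 tested probes and a threshold of 0.05. Of all tested probes, 33.1% were past it, 15.8% higher and 17.3% lower in hSRY-ON livers. Over all probes, 4060 instead of 3554 were called without hSRY-ON replicate 3, and 2034 without hSRY-OFF replicate 1. No probe of the table was assigned to human *SRY*. In a bulk liver sample, fewer cells of a type and less RNA per cell cannot be told apart.

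Of the 27 tested cytosolic probes, 7 were higher in hSRY-ON livers (25.9%, against 15.8% of all tested probes) and 0 were lower (17.3% of all tested probes). Their median difference was 0.13, against 0.02 over all tested probes. Of the 12 tested mitochondrial probes, 1 was higher (8.33%) and 3 were lower (25%, against 17.3% of all tested probes), with a median of -0.15. The groups did not overlap at 9 cytosolic probes, all higher in hSRY-ON livers (33.3%, against 25.4% of all tested probes), and at 7 mitochondrial probes, of which 2 were higher and 5 lower (24.6% of all tested probes were lower without overlap). Counting both directions, 25.9% of cytosolic and 33.3% of mitochondrial probes were past the threshold, against 33.1% of all tested probes. The shares without overlap in either direction were 33.3% and 58.3%, against 50% of all tested probes. Shares of so few probes are coarse, since a single mitochondrial probe is 8.33% of its group. Without hSRY-ON replicate 3, 6 cytosolic probes were higher and 3 mitochondrial probes lower.

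**Figure D1:**
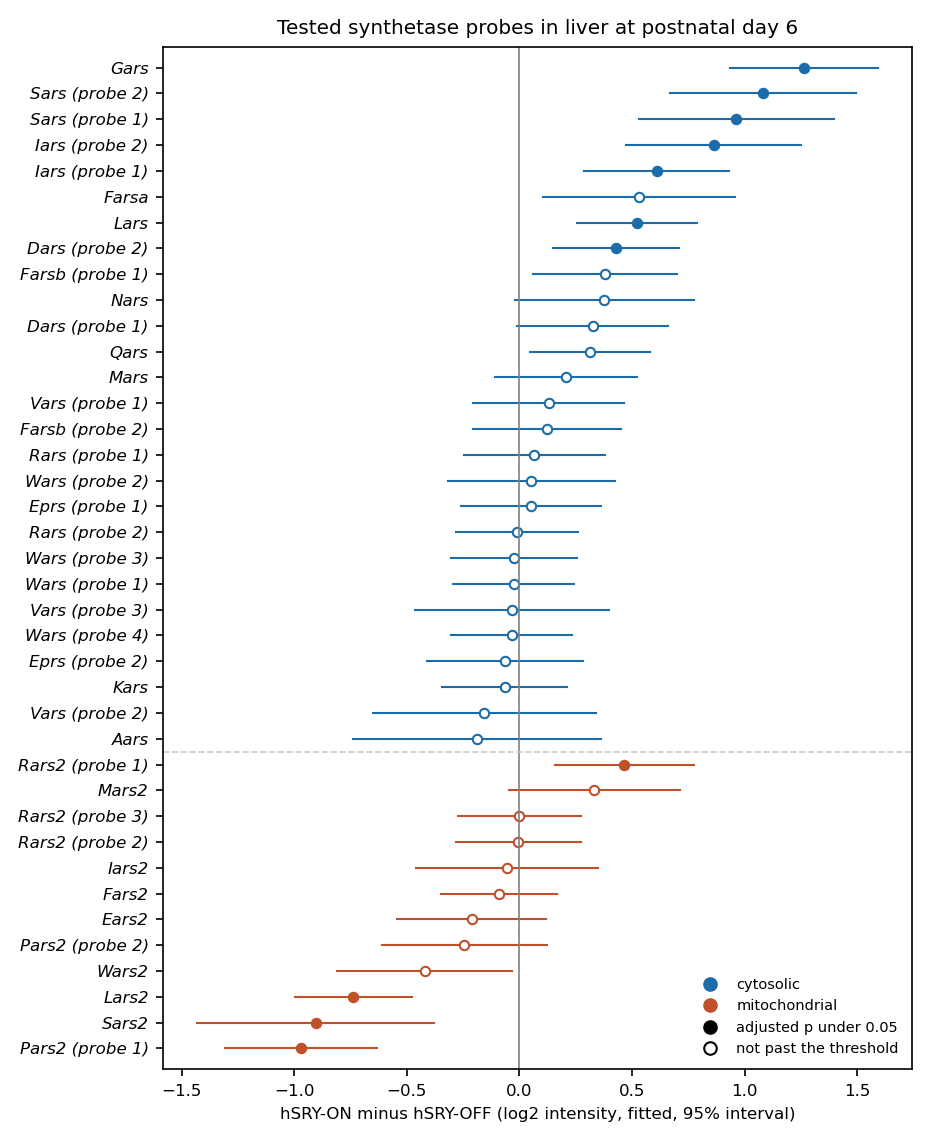
Difference between hSRY-ON and hSRY-OFF livers on the log2 intensity scale for the 39 tested synthetase probes, with 95% intervals from limma; filled points were past the adjusted threshold. Cytosolic probes reach from -0.19 to 1.26 and mitochondrial probes from -0.97 to 0.47.

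As the mean deviation from the hSRY-OFF mean over the 27 cytosolic probes, the hSRY-ON arrays lay at 0.33, 0.20 and 0.32 and the hSRY-OFF arrays at 0.02, -0.06 and 0.03. Over the 12 mitochondrial probes the hSRY-ON arrays lay at -0.22, -0.26 and -0.23 and the hSRY-OFF arrays at 0.04, -0.03 and -0.01. Over all tested probes every hSRY-ON array lay at -0.01. hSRY-ON replicate 2 was the lowest of its group at 18 of the 27 cytosolic probes. Values of the probes that differed, array by array, are given next.

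Among the cytosolic enzymes outside the multi-synthetase complex, *Gars* had the largest rise of all members. Its probe (ILMN_2678200) read 5912, 6111 and 5235 in deposited intensity on the hSRY-OFF arrays and 15793, 11794 and 10027 on the hSRY-ON arrays. On the normalized log2 scale these were 12.34, 12.37 and 12.45 against 13.89, 13.51 and 13.54. Every hSRY-ON array was above every hSRY-OFF array on both scales, and hSRY-ON replicate 1 was the highest. The group means were 12.39 ± 0.06 and 13.65 ± 0.21 (SD, n = 3 each). The difference was 1.26 (SE 0.14, 95% interval 0.93 to 1.59, limma adjusted p 0.000917), larger than at 96.8% of all tested probes.

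*Sars* was measured by a bright and a dim probe. The bright one (ILMN_2871412) read 8.68, 8.67 and 8.99 on the hSRY-OFF arrays and 10.16, 9.61 and 9.82 on the hSRY-ON arrays, without overlap. Its difference was 1.08 (SE 0.18, limma adjusted p 0.00416). The dim one (ILMN_2712900) was not above background on any hSRY-OFF array (5.41, 5.49 and 5.24) and was detected on all hSRY-ON arrays (6.53, 5.95 and 6.54). Against the detection floor of the control arrays, after background correction, it was at least 1.52-fold higher (limma adjusted p 0.00782). Without background correction its fitted difference was 0.32, still past the threshold, so that the bound holds only on the corrected scale. Both *Sars* probes moved the same way, but the dim one met the detection filter only through the hSRY-ON arrays, where it was higher. Its direction therefore adds no separate support. With detection on all 6 arrays required, 6 of 25 tested cytosolic probes were higher.

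In the multi-synthetase complex, 4 of 12 tested probes rose (33.3%, against 15.8% of all tested probes) and 0 fell, with a median of 0.26. Outside it 3 of 15 rose (20%), all of them probes of *Gars* and *Sars*, and the median was 0.12. These shares rest on few probes, some of them of the same gene. *Iars* was represented in the complex by a pair of tested probes that both rose. The brighter (ILMN_2810045) read 9.34, 9.22 and 9.48 on the hSRY-OFF arrays and 10.14, 9.84 and 9.89 on the hSRY-ON arrays, a difference of 0.61 (SE 0.14, limma adjusted p 0.0141). Leaving out control replicate 1 or control replicate 2 raised the adjusted p to 0.0556 and 0.0590, which ended this call. The dimmer (ILMN_2810047) read 5.84, 6.32 and 6.31 against 7.07, 6.87 and 7.11, with no overlap. Its difference was 0.86 (SE 0.17, limma adjusted p 0.00794) and 0.37 without background correction, still past the threshold.

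*Lars* (ILMN_2899591) read 8.90, 8.92 and 8.85 on the hSRY-OFF arrays and 9.49, 9.30 and 9.44 on the hSRY-ON arrays. The groups were far apart relative to their spread (8.89 ± 0.03 and 9.41 ± 0.10, SD, n = 3 each). The difference was 0.52 (SE 0.11, 1.43-fold, limma adjusted p 0.0128), and the adjusted p was 0.0529 without hSRY-OFF replicate 1 and 0.0579 with median scaling. *Dars*, the aspartate enzyme, rose at ILMN_3102333, from 11.52 ± 0.07 to 11.95 ± 0.12 (difference 0.43, SE 0.12, limma adjusted p 0.0302). That call was the least stable of the cytosolic ones and was lost without hSRY-OFF replicate 1, 2 or 3 (adjusted p 0.10, 0.0725 and 0.0912), without hSRY-ON replicate 1 or 3 (0.0714 and 0.0502), with a replicate block (0.0688), with trimmed-mean scaling (0.0691) and with median scaling (0.218). The other tested *Dars* probe differed by 0.32 in the same direction (limma adjusted p 0.120).

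**Figure D2:**
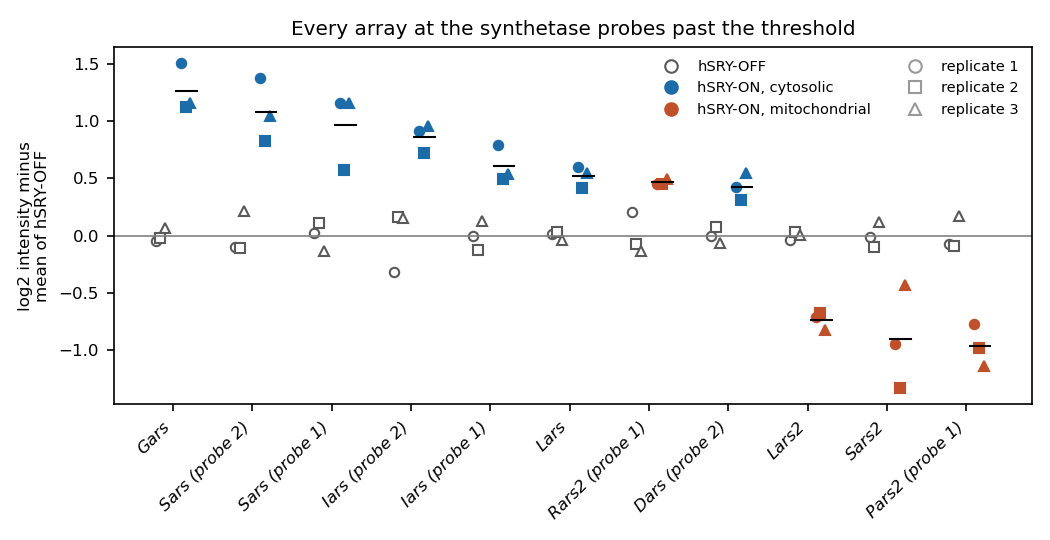
Log2 intensity of each array minus the hSRY-OFF mean at the 11 synthetase probes past the threshold, open symbols for hSRY-OFF and filled for hSRY-ON arrays, n = 3 each. The groups do not overlap at any of these probes, and the spread of the hSRY-ON arrays is widest at *Sars2*, where their SD is 0.45.

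The remaining complex members did not pass. *Qars*, the glutamine enzyme, differed by 0.31 (95% interval 0.05 to 0.58, limma adjusted p 0.0699) with no overlap between groups, and *Mars*, which also loads the initiator methionine, by 0.21 (limma adjusted p 0.269). *Rars* was at 0.07 and -0.01 with its pair of probes and *Kars* at -0.06 (95% interval -0.34 to 0.21). *Eprs*, a single protein that loads both glutamate and proline, was at 0.05 (95% interval -0.26 to 0.36) and -0.06 (95% interval -0.41 to 0.28), so that a rise as large as that of *Lars* lay outside both intervals.

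Of the enzymes outside the complex, the subunits of the phenylalanine enzyme came closest to the threshold. *Farsa* differed by 0.53 (limma adjusted p 0.0598), with signal above background on 1 control array and on all 3 hSRY-ON arrays, and passed without hSRY-OFF replicate 1 (adjusted p 0.0469). *Farsb* differed by 0.38 (limma adjusted p 0.0685, no overlap) and 0.12 (limma adjusted p 0.532) at its pair of probes, and the first passed without hSRY-ON replicate 2 (adjusted p 0.0272). *Nars*, the asparagine enzyme, differed by 0.38 (limma adjusted p 0.125) and passed without hSRY-ON replicate 2 (adjusted p 0.0432). The 4 probes of *Wars*, the tryptophan enzyme, lay between -0.04 and 0.05, and the 3 of *Vars*, the valine enzyme, between -0.16 and 0.13. *Aars*, the alanine enzyme, was at -0.19 (95% interval -0.74 to 0.36), with hSRY-ON replicate 2 at 10.80 and the other two hSRY-ON arrays at 11.54 and 11.71.

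Synthetases fall into class I and class II by the fold of their catalytic domain. Of 14 tested cytosolic class I probes 3 rose (21.4%, against 15.8% of all tested probes), with a median of 0.06. Among 11 class II probes 4 rose (36.4%), with a median of 0.38. Shares of so few probes are coarse. *Eprs*, which joins a domain of each class, is in neither count. Without *Gars* and *Sars*, a split made after their values were seen, 4 of the remaining 24 cytosolic probes rose (16.7%, near the 15.8% of all tested probes) and the median was 0.09. Since these genes held 3 of the 7 rises, the lower share follows from leaving them out.

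**Figure D3:**
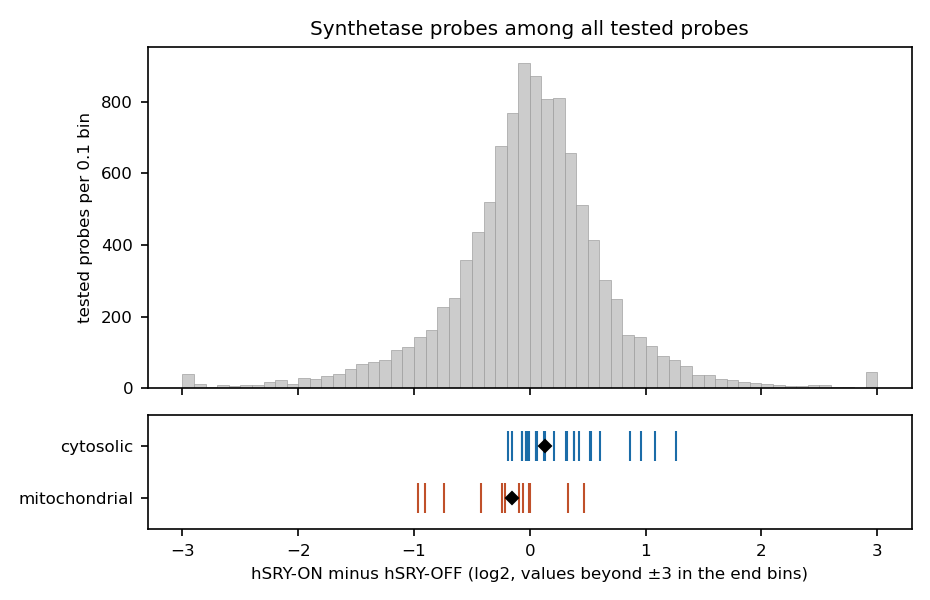
Distribution of the difference between hSRY-ON and hSRY-OFF livers on the log2 scale over all 10734 tested probes, in bins of 0.1 (top), with the 27 cytosolic and 12 mitochondrial synthetase probes below it on the same axis. All tested probes have a median of 0.02, the cytosolic probes of 0.13 and the mitochondrial probes of -0.15.

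Among the mitochondrial enzymes, *Pars2* (proline) had the largest fall. Its first probe (ILMN_1246508) read 7.69, 7.67 and 7.93 on the hSRY-OFF arrays and 6.99, 6.78 and 6.62 on the hSRY-ON arrays, with no overlap. The difference was -0.97 (SE 0.14, limma adjusted p 0.00296), and -0.54 without background correction, still past the threshold. The second *Pars2* probe, ILMN_2947286, had a difference of -0.24 (95% interval -0.61 to 0.12, limma adjusted p 0.262), so that the size was not matched by both probes.

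*Lars2* (leucine, ILMN_2737296) read 7.73, 7.81 and 7.78 on the hSRY-OFF arrays and 7.06, 7.10 and 6.95 on the hSRY-ON arrays. Both groups were tight and well separated (7.77 ± 0.04 and 7.04 ± 0.08, SD, n = 3 each). The difference was -0.74 (SE 0.11, limma adjusted p 0.0031), and -0.42 without background correction. In deposited intensity the probe read 365, 382 and 301 against 280, 257 and 228, which do not overlap either.

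*Sars2* (serine, ILMN_3162754) read 7.27, 7.18 and 7.40 on the hSRY-OFF arrays and 6.34, 5.95 and 6.85 on the hSRY-ON arrays. All hSRY-ON arrays were lower, but they differed among themselves more than at any other called synthetase probe. The difference was -0.90 (SE 0.22, limma adjusted p 0.0199), and -0.42 without background correction. The call was lost without hSRY-OFF replicate 1, 2 or 3 (adjusted p 0.0647, 0.0541 and 0.0645) or hSRY-ON replicate 1 (0.0603).

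*Rars2*, the arginine enzyme, had the only mitochondrial probe that rose past the threshold, and its probes disagreed. ILMN_2750676 read 7.07, 6.79 and 6.73 on the hSRY-OFF arrays and 7.32, 7.31 and 7.36 on the hSRY-ON arrays (difference 0.47, SE 0.13, limma adjusted p 0.031). The other tested probes of the gene were at 0.00 (95% interval -0.27 to 0.27) and -0.00 (95% interval -0.28 to 0.27). The call was lost without hSRY-OFF replicate 2 or 3 (adjusted p 0.111 and 0.0970) and without hSRY-ON replicate 1 or 2 (0.0720 and 0.0568). *Wars2* and *Ears2*, for tryptophan and glutamate, lay at -0.42 and -0.21 with no overlap between groups and were not past the threshold (limma adjusted p 0.0894 and 0.281). *Mars2*, for methionine, lay at 0.33, higher without overlap and not past the threshold (limma adjusted p 0.154). *Fars2* was at -0.09 and *Iars2* at -0.06 (95% interval -0.46 to 0.35).

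To set the enzymes of the same amino acid against each other, the log2 ratio of the cytosolic to the mitochondrial probe was taken within each array, using the brightest tested probe of each gene. This comparison was added after the values had been seen. Of 10 pairs, 5 had hSRY-ON ratios above all hSRY-OFF ratios and 0 had them below. Taken singly, 25.4% of all tested probes were higher and 24.6% lower without overlap. The matching share for ratios of other probes was not computed. *Fars2* and *Eprs* each entered more than 1 pair, so the pairs are not separate observations. Each of the 5 pairs without overlap reached the smallest two-sided p that an exact permutation test of 3 against 3 arrays can give, 0.1. After Benjamini-Hochberg adjustment over the 10 pairs it was 0.2. The design therefore could not place a single pair past 0.05.

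The serine pair had the largest difference. Relative to the hSRY-OFF mean, the log2 ratio of *Sars* to *Sars2* was -0.08, -0.01 and 0.09 on the hSRY-OFF arrays and 2.33, 2.16 and 1.47 on the hSRY-ON arrays, a mean difference of 1.99 ± 0.27 (SE, n = 3 each). It was 1.32 without background correction. The leucine pair differed by 1.26 ± 0.09, with hSRY-ON arrays at 1.31, 1.08 and 1.38, and by 0.85 without background correction. The proline pair, *Eprs* to *Pars2*, differed by 1.02 ± 0.10, with hSRY-ON arrays at 1.03, 0.88 and 1.15, and by 0.57 without background correction. In the serine and leucine pairs both enzymes moved, in opposite directions, whereas in the proline pair only the *Pars2* probe was past the threshold.

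The differences of the other pairs were smaller. The ratio of *Farsa* to *Fars2* differed between groups by 0.62 ± 0.18 and that of *Wars* to *Wars2* by 0.39 ± 0.19, both without overlap, and by 0.25 and 0.17 without background correction. *Farsa* was detected on only 1 of 3 control arrays, so its ratio there rests on values near background. *Iars* to *Iars2* differed by 0.66 ± 0.29 with overlapping arrays (exact permutation p 0.2), since *Iars2* read 9.57, 9.63 and 9.26 against 9.29, 9.72 and 9.29. *Rars* read 10.02, 9.90 and 9.83 against 9.90, 9.87 and 10.18, and its ratio to *Rars2* differed by 0.07 (exact permutation p 0.7). *Eprs*, at 8.18, 8.23 and 8.27 against 8.48, 8.12 and 8.24, differed by 0.26 relative to *Ears2* (exact permutation p 0.5). *Farsb* to *Fars2* differed by 0.21 (exact permutation p 0.3) and *Mars* to *Mars2* by -0.12 (exact permutation p 0.6).

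**Figure D4:**
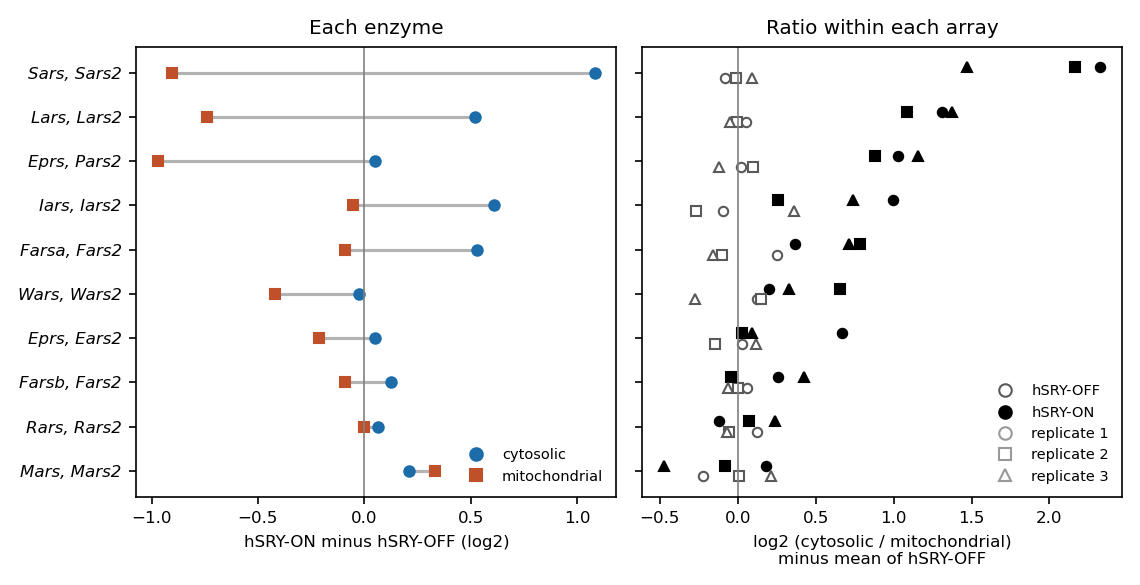
Cytosolic and mitochondrial enzymes of the same amino acid: left, the difference between hSRY-ON and hSRY-OFF livers (log2) for each enzyme; right, the log2 ratio of the cytosolic to the mitochondrial probe on each array minus its hSRY-OFF mean, open points for hSRY-OFF and filled points for hSRY-ON arrays. The hSRY-ON ratios of the serine pair lie at 1.47 to 2.33 and those of the arginine pair overlap with the hSRY-OFF ratios.

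Genes that work beside the synthetases were taken from lists of general knowledge. For comparison, 15.8% of all tested probes rose and 17.3% fell. Of the scaffold proteins of the multi-synthetase complex, *Aimp1* (listed as *Scye1*) rose by 0.46 (SE 0.14, limma adjusted p 0.0405), and the other 3 of 4 tested probes, for *Aimp2* and *Eef1e1*, were not past the threshold. Of 14 tested probes for genes that help in charging or correct it, 0 rose and 5 fell, with a median of -0.38. These were 4 probes of *Gatb* (listed as *Pet112l*), a subunit of the amidotransferase that makes mitochondrial glutaminyl-tRNA, at -1.30 to -0.52 (smallest limma adjusted p 0.000365). The last was a probe of *Sepsecs*, which makes selenocysteinyl-tRNA, at -1.14 (limma adjusted p 0.00137). Among synthetases with names outside the 34, the probes of *Vars2* and *Tarsl2* were between -0.08 and 0.07 and not past the threshold.

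Elongation factors, which bring charged transfer RNAs to the ribosome or act in the steps that follow, were split by compartment after their values were seen. Of 10 tested probes for 5 cytosolic factors, 6 rose and 0 fell (15.8% and 17.3% over all tested probes), with a median of 0.84. All 3 probes of *Eef1b2*, an exchange factor of the protein that carries charged transfer RNA to the ribosome, rose by 0.84 to 1.23. The other rises were all 3 probes of *Eef2*, the translocation factor, at 0.83 to 1.03. The tested probes of *Eef1a1*, which encodes the carrier, were at 0.05 and 0.06 and not past the threshold. Both had an hSRY-OFF mean of 15.1, near the top of the intensity scale, which leaves little room to see a rise. Of 4 probes for mitochondrial factors, 0 rose and 2 fell, with a median of -0.39. *Tufm*, the mitochondrial carrier, fell by 0.40 (limma adjusted p 0.0466).

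Of 23 tested probes of 17 other genes known to respond to amino acid shortage through ATF4, 16 rose and 0 fell, with a median of 1.38. Over all tested probes 15.8% rose and 17.3% fell. *Atf4* itself rose by 0.66 (SE 0.15, limma adjusted p 0.0158). *Trib3*, a pseudokinase known to bind ATF4, rose by 3.86 at ILMN_1225528, the 1 of its 3 probes that every control array detected (limma adjusted p 0.000154). *Vldlr*, a lipoprotein receptor, rose by 1.63 at ILMN_1218264 (limma adjusted p 0.000351). The differences of the cytosolic synthetases, -0.19 to 1.26, all lay below the median of this list.

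Markers of the cells a neonatal liver holds also moved, and their part in the synthetase differences was not tested. For comparison with the counts below, 15.8% of all tested probes rose and 17.3% fell, so that the erythroid count is near that share. Of 8 tested hepatocyte probes 4 fell and 0 rose. Sums of normalized intensity, here and below, cover every probe of a list, also those not tested. For the hepatocyte list the sum was 158876 to 162600 on the hSRY-OFF arrays and 143804 to 151530 on the hSRY-ON arrays. Of 10 stellate and fibroblast probes 5 rose and 1 fell, with sums of 7376 to 8168 against 18585 to 20361. Those that rose were 4 probes of *Acta2*, a smooth muscle actin, at 2.45 to 3.12 and 1 of *Des*, a filament protein, at 0.77. *Lrat*, a retinol-storing enzyme of stellate cells, was at least 2.23-fold lower, since no hSRY-ON array detected it, and *Col1a1* and *Col3a1* were at -0.47 and -0.21, not past the threshold. Of 6 endothelial probes 3 rose, with sums of 2689 to 3222 against 3107 to 3929, and of 6 erythroid probes 1 rose, with sums of 63703 to 82172 against 80119 to 92423. Of 10 macrophage probes 1 rose and 3 fell, and the sums of the list overlapped (7521 to 9140 against 5993 to 7600). Of 10 neutrophil probes 0 passed in either direction (sums of 46279 to 53407 against 31026 to 95395). The only tested biliary probe was not past the threshold, and the biliary markers *Krt19* and *Sox9* were not detected on any array.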

How the data were processed

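RNA from 6 livers was measured on Illumina MouseRef-8 bead arrays at a core facility. For every probe and array, the deposited table gave a linear intensity, with no sign in its values of background subtraction or normalization by the authors (lowest value 108), and a deposited detection p-value. Scanner software, outlier filters and genome build are not given in the sources used here. The submitters' processing notes name limma, without a version, and the study's methods name TCC, a package for counts, which was not applied to intensities. The sample labels gave the groups and replicate numbers, and 0 columns were unmatched. Control probes, slides and scan dates were not used.

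Background was removed with limma 3.58.1 (nec with detection p-values, offset 16; R 4.3.3). Arrays were then quantile-normalized and log2-transformed. A probe was tested if 3 or more of the 6 arrays gave it a detection p below 0.01, with lmFit and eBayes, without covariates, two-sided, with Benjamini-Hochberg adjustment over all tested probes and a threshold of 0.05. The offset shrinks the differences of dim probes. Probes of 1 gene were tested separately. A probe undetected on every array of a group was given as a bound against the lowest normalized signal among detected probes of those arrays. The script was tested on simulated data.

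The members, gene lists, motif and rule for named genes were chosen with earlier results of these data known. Values of every array are given for members past the threshold with a difference of at least 1 and for cytosolic and mitochondrial counterparts of which at least 1 was past it, the others by ranges and counts. From the other lists, *Atf4* and members past the threshold with the smallest p-values are named. Some items are not reported here. Promoter windows and gene names came from RefSeq (GRCm38.p6), and older symbols were matched through its synonyms. Alternatives covered background correction, scaling, filters, the fit, the threshold, 1 probe per member, a replicate block and each array left out. The labels do not name animals. The study gives 3 mice per group, so p-values are taken to measure the spread between mice, and with 3 arrays a group their number limits the precision.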

Additional observations from a re-analysis of the deposited data

How the results depend on the processing

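No synthetase probe changed direction to a call of the opposite sign (0 reversed) under the alternatives run on single probes, 17 each except for *Farsa* and the dim *Sars* probe with 16, since neither was detected on all 6 arrays. *Gars*, both *Sars* probes, the dimmer *Iars* probe, *Lars2* and the first *Pars2* probe stayed past the threshold in every alternative run on them. Without array background correction, differences of dim probes were smaller. An adjusted p under 0.01 left 4 of the 7 cytosolic rises and 1665 instead of 3554 calls over all probes. The single mitochondrial rise, *Rars2*, was lost (0 calls) with median scaling, with the trimmed mean of M values, with the replicate block, at an adjusted p under 0.01 and with 1 probe per member. The 0 cytosolic falls held in every alternative. The cytosolic median was 0.26 with 1 probe per member. The mitochondrial median was -0.089 without background correction, -0.12 with normexp without detection p-values (offset 50), -0.23 with median scaling, -0.073 with no filter and -0.21 with 1 probe per member.

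Leaving out each array in turn gave 2034 (without hSRY-OFF replicate 1) to 4060 calls over all probes, 2166 without hSRY-OFF replicate 2, 5 to 9 cytosolic rises, 0 to 1 mitochondrial rises and 2 to 3 mitochondrial falls. The cytosolic median then ranged from 0.089 (without hSRY-OFF replicate 2) to 0.23 (without hSRY-ON replicate 2) and the mitochondrial median from -0.22 to -0.092. *Qars* and the brighter *Dars* probe were on the border. *Qars* passed in 4 alternatives (adjusted p 0.0251 without background correction), and *Dars* was lost in 8 of 17. The second tested *Dars* probe passed only with array weights (adjusted p 0.0439).

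Replicate numbers are shared by the groups. Arrays of the same number correlated at 0.02, 0.10 and 0.05 in their deviations from the group means, so the numbers were not taken to pair the samples. With a replicate block 3210 probes were called over the whole table, 6 cytosolic probes rose, 0 mitochondrial probes rose and 3 fell. Signal over background limits the dim probes most: 15 of the 54 synthetase probes had no test.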
